A study of Mus musculus with 6 samples.

Results

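Genes for the matrices that cover the sensory epithelia of the inner ear were followed in the stria vascularis of Esrrb mutant and wild-type mice. The group consists of Otoa, Otog, Tecta, Tectb and Oc90. These members, and the gene lists set beside them, were chosen with earlier results of these data known. Counts and shares of the members are therefore a description, and their contrast with other genes is not a test. Every probe set that the array annotation gives to exactly 1 of the member symbols was used. Each gene had 1 such probe set, so the group holds 5 of the 45037 probe sets tested and 5 of the 18193 genes measured. The samples were 6 pools of total RNA, each hybridised to 1 Affymetrix array, with 3 pools from wild-type mice and 3 from Errb mutant mice, and 10 mice in a pool. Errb, also Nr3b2, is the name the labels give to Esrrb, which encodes estrogen-related receptor beta, a nuclear receptor without a known natural ligand. The mutants came from a conditional knock-out strategy, and neither the Cre driver nor the floxed segment is named. A postnatal age of 3 to 5 days is given for the first wild-type pool alone, and no treatment is named for any pool. In the design text the pooled tissue is the inner ear, and in the labels of single samples it is the stria vascularis. Nothing in the labels says how far the pools were independent beyond being numbered separately, so the p-values reflect only the spread among these pools, which may be technical.

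The tectorial membrane is a sheet of extracellular matrix that lies over the hair cells of the cochlea and couples sound-evoked motion to their stereocilia. Otoconia are the calcium carbonate crystals that load the vestibular maculae and allow the sensing of gravity and linear acceleration. Both matrices are secreted by non-sensory epithelial cells around the hair cells, and neither covers the stria vascularis, which is the secretory epithelium of the cochlear lateral wall. Tecta and Tectb encode alpha- and beta-tectorin, non-collagenous proteins with zona pellucida domains that build the striated sheet of the tectorial membrane. Otog encodes otogelin, a mucin-like glycoprotein of the acellular membranes of the inner ear. Otoa encodes otoancorin, which attaches the tectorial membrane to the spiral limbus. Oc90 encodes otoconin-90, the main protein of otoconia, which carries domains related to secreted phospholipase A2.

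Values are deposited log2 expression values, on which a step of 1 is a doubling. Differences are mutant minus wild type within a pair of pools that carry the same replicate number, given as the mean ± SD of 3 pairs. Deviations from the genotype means correlated between same-numbered pools at 0.879, 0.818 and 0.746 over all probe sets, and array medians lay from 6.07 to 6.95, with the medians of a pair 0.012 to 0.04 apart. Levels are therefore compared within pairs. Exactly equal values within pairs numbered 15406 in pair 1, 1185 in pair 2 and 1398 in pair 3, so pairs may have been normalized separately. The correlations therefore do not show that the pools were paired in the experiment. Pair 1 stood apart in RNA quality, with 3' control probe sets of Gapdh brighter than its 5' ones by 2.28 in wild type and 2.57 in the mutant, against -0.045 to 0.51 on the other 4 arrays. The 3 probe sets of Esrrb differed by -0.07 ± 0.21, -0.18 ± 0.43 and -0.42 ± 0.46 (limma adjusted p = 0.856, 0.793 and 0.719). Their place relative to the deleted part is not known here, so they do not check the genotype labels. The tissue label was set beside bright markers of the strial cell types. Dct, a melanin synthesis enzyme gene of intermediate cells, averaged 12.0 over the 6 arrays, Slc12a2, the cotransporter gene of marginal cells, 12.1, and Gjb6, a connexin gene of basal cells, 11.8. These averages include the mutant arrays, where the genes were lower. Other genes of the same lists were dimmer, among them Kcne1 at 7.55, Bsnd at 7.08 and Tyrp1 at 5.2, so the check is a partial one. Cartilage collagen genes were also bright, with Col2a1 averaging 13.8, so the dissected tissue may not have been stria alone. The genes of a bone and cartilage list were much dimmer, from Col10a1 at 5.83 to Chad at 8.02. Which cells gave the collagen signal was not tested.

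Upstream sequence is shown for Otog and Tectb, the members with the largest mean difference and the largest difference in any pair, because the mutated gene encodes a DNA-binding receptor. Each run is the 250 bases before the annotated start of transcription on the gene's strand, from RefSeq, build GRCm38.p6. The windows are chr7:46240737-46240986 on the plus strand for Otog and chr19:55180476-55180725 on the plus strand for Tectb.
Otog: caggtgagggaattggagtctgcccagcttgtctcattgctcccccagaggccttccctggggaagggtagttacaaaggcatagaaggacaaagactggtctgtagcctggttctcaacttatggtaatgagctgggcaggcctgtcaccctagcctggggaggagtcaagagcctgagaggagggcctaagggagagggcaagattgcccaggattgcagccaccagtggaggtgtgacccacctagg
Tectb: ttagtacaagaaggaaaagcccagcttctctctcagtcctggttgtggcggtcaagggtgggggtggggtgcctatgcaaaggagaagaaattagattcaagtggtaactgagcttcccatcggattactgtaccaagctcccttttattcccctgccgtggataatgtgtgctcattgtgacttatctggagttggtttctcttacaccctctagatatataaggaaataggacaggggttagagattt
Capitals were reserved for matches to the estrogen-related receptor element TNAAGGTCA and to its nuclear receptor core AGGTCA, which lies within it, searched on both strands. There was no match in either run, nor in the windows of Otoa and Tecta, which has 2 annotated starts, so that 0 of 5 windows held a match. Of all 32851 windows of the same length in the table, 1.14% held the longer element and 14.0% the core. Oc90 was not matched in that table. The letters of these short windows say nothing of binding elsewhere. G and C made up 57.2% of the Otog window and 46.0% of the Tectb window, against a median of 52.4% over all windows.

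Otog and Oc90 lay higher in the mutant pool of every pair, by about 2-fold on average, while Tecta and Tectb were more than 2-fold higher in the mutant of pair 2 and Otoa differed little. In RNA from whole tissue a difference in the number of cells of a type and one in RNA per cell cannot be told apart. No member passed the threshold of 0.05 after adjustment over all probe sets. In the paired limma fit 0 of the 5 members were called, where 0.0933% of all probe sets were, 0.0111% as higher and 0.0822% as lower in the mutant. At an unadjusted p under 0.05 there were 2 members, both higher, against 4.11% of all probe sets in that direction (7.18% in either). Without the pairing 0 of 5 were called as well, against 0.00666% of all probe sets, and 2 had an unadjusted p under 0.05, against 0.0422% in their direction. The median of the member differences was 0.028 in pair 1, 1.26 in pair 2 and 0.41 in pair 3, where the median over all probe sets was 0.0 in each pair.

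**Figure D1:**
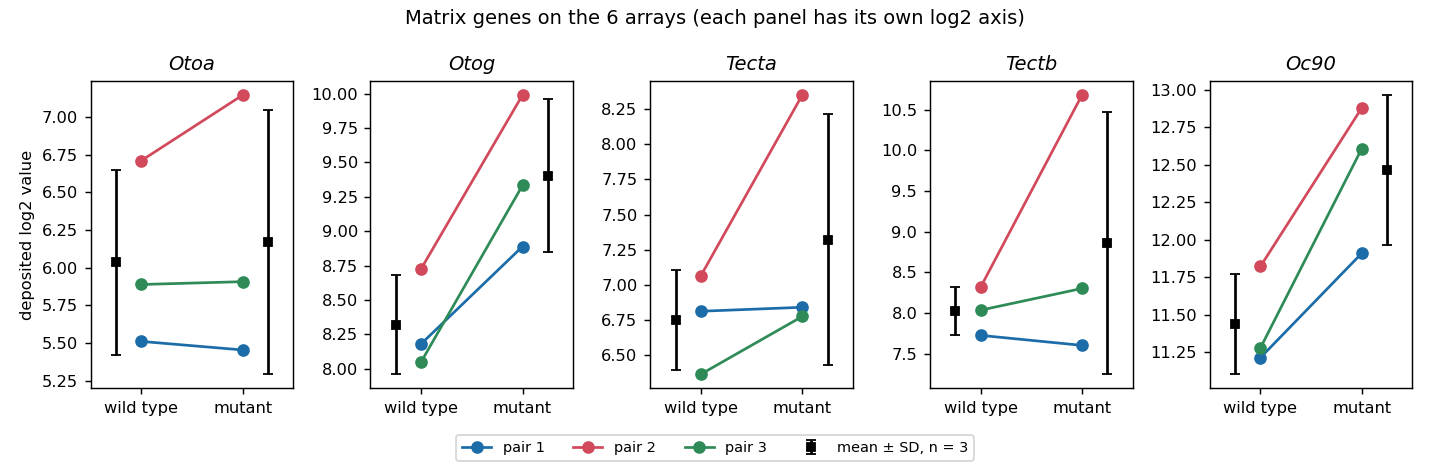
Deposited log2 value of each gene's probe set (vertical axis, a separate scale in each panel) on the wild-type and mutant arrays, with lines joining same-numbered pools and black squares giving the mean ± SD of 3 pools. All 3 lines slope upward for Otog and Oc90, whereas in the panels of Tecta and Tectb the pool of mutant pair 2, at 8.35 and 10.68, stands above the other 5.

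Otog, the gene of a structural glycoprotein of the acellular membranes, read higher in the mutant of every pair. Its values were 8.18, 8.73 and 8.05 in wild-type pools 1 to 3 and 8.89, 9.99 and 9.33 in the mutant pools of the same numbers. All 3 mutant pools lay above all 3 wild-type pools, with the lowest mutant 0.162 above the highest wild type. Mutant arrays lay wholly above wild-type arrays for 0.764% of all probe sets. After each array's median was subtracted the gap widened to 0.695. The paired differences were 0.71, 1.26 and 1.28, a mean of 1.08 ± 0.33, or 2.12-fold with a 95% interval of 1.68 to 2.68-fold. The adjusted p was 0.141 in the paired limma fit and 1.0 without the pairing (unadjusted 0.000359 and 0.0187). Among probe sets higher in the mutant, 17 had a paired p as small as that of Otog or smaller.

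Oc90, the otoconial gene, was bright on every array, above at least 98.3% of all probe sets. It read 11.21, 11.82 and 11.28 in the wild-type pools and 11.91, 12.88 and 12.61 in the mutant pools. The groups again did not overlap, with a gap of 0.0885 as deposited and of 0.685 after median subtraction. The paired differences were 0.70, 1.06 and 1.33, a mean of 1.03 ± 0.32, or 2.04-fold with a 95% interval of 1.62 to 2.57-fold. The adjusted p was 0.156 in the paired limma fit and 1.0 without the pairing (unadjusted 0.00042 and 0.021). A mean difference of at least 1 in favour of the mutant was held by 34 probe sets, or 0.0755% of all, Otog and Oc90 among them. For both genes the smallest of the 3 differences was that of pair 1, the pair with the widest 3' to 5' gap, and the part of RNA quality in this was not tested. An exact permutation test over 6 arrays gave p = 0.1 for each of these 2 genes, the smallest that 3 against 3 allows, and exact sign flips of 3 pairs gave 0.25, likewise the smallest (both two-sided).

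Tectb, the beta-tectorin gene, had the largest difference of any member in a single pair and none of note in the other 2. The wild-type pools read 7.73, 8.32 and 8.04, and the mutant pools 7.60, 10.68 and 8.30. One array, mutant pool 2, was far above the other 5, which lay within 7.60 to 8.32. The paired differences were -0.12, 2.36 and 0.27, that is 0.918-fold, 5.14-fold and 1.2-fold, with a mean of 0.84 ± 1.34 and a 95% interval of -0.38 to 2.05. The adjusted p was 0.75 (paired limma fit; unadjusted 0.14), and without pair 2 the mean difference was 0.072. In pair 2 the difference of Tectb took rank 3 among all 45037 probe sets.

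Tecta, the alpha-tectorin gene, followed a like order of pairs at a smaller size. It read 6.81, 7.07 and 6.37 in wild type and 6.84, 8.35 and 6.78 in the mutant. Mutant pool 2 was the highest of the 6, and the groups overlapped. The paired differences were 0.028, 1.28 and 0.41, a mean of 0.57 ± 0.64 with a 95% interval of -0.03 to 1.18 (paired limma fit, adjusted p = 0.719, unadjusted 0.0587). Without pair 2 the mean difference was 0.219, so that pair carried most of it. Tecta was higher in the mutant of all 3 pairs, as were Otog and Oc90, against 12.1% of all probe sets. That share is lowered by the 15406 of 45037 probe sets with equal values in pair 1, which could not count as higher. Tecta itself was higher there by only 0.028.

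Otoa, which encodes the protein that anchors the tectorial membrane to the limbus, had the smallest mean difference of the members, from a dim probe set. Its values were 5.51, 6.71 and 5.89 in wild type and 5.45, 7.15 and 5.91 in the mutant, which overlapped throughout. These lay between the 37.2 and 53.9 percentile of all probe sets on their arrays. No detection call or background value comes with the deposited table, so it is not known whether Otoa was above background. The paired differences were -0.057, 0.44 and 0.019, a mean of 0.13 ± 0.26 with a 95% interval of -0.16 to 0.42 (paired limma fit, adjusted p = 0.78). As a ratio the interval runs from 0.897 to 1.34-fold. Without pair 2 the sign turned, at -0.019.

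**Figure D2:**
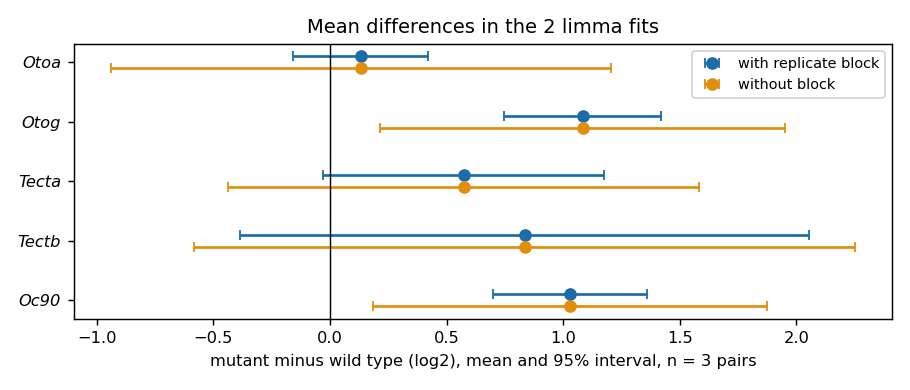
Mean difference between mutant and wild type (log2, horizontal axis) for each gene, with 95% intervals over 3 pairs from limma, fitted with same-numbered pools paired (blue) or unpaired (orange). The intervals of Otog (0.75 to 1.42 paired, 0.22 to 1.95 unpaired) and Oc90 (0.70 to 1.36 and 0.19 to 1.87) lie above 0, and those of the other 3 genes include it; the intervals are not adjusted for the number of probe sets.

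Pair 2 set 4 of the 5 genes apart from nearly all other probe sets. Only 21 probe sets, 0.0466% of all, were higher by at least 1 in the mutant of pair 2, and Tectb, Tecta, Otog and Oc90 were at positions 3, 11, 13 and 19 among them. Otoa, at 0.44, was at or below the difference of 1.15% of probe sets there. In pair 3, where 0.153% of probe sets reached 1, Otog and Oc90 were again past it, and Tecta and Tectb were not. In pair 1, where 0.375% reached 1, no member did. The genes therefore fell into those with a similar difference in 3 pairs, Otog and Oc90, and those whose difference was large in 1 pair, Tectb and Tecta. That grouping was made after the values were seen and was not tested.

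**Figure D3:**
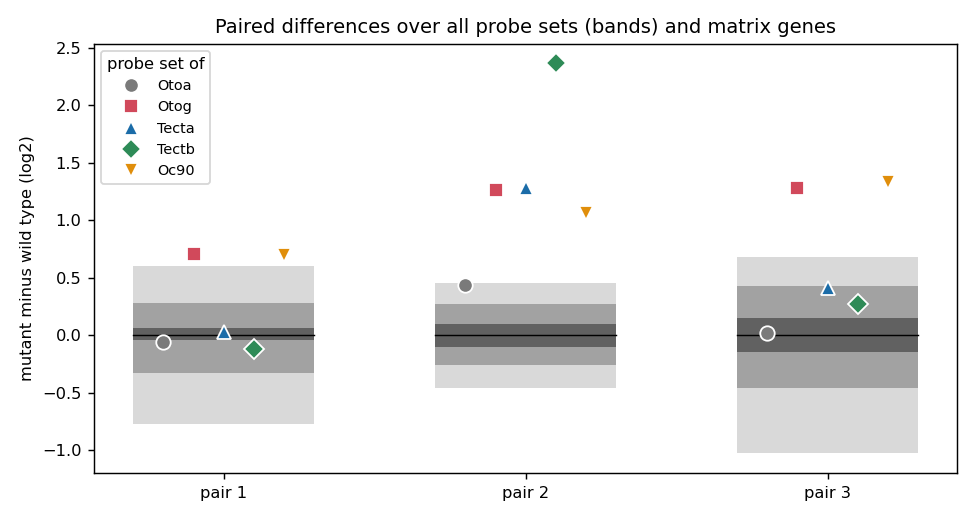
Mutant minus wild type (log2, vertical axis) in each pair for the 5 genes (coloured symbols) over grey bands that hold the middle 50%, 90% and 98% of all 45037 probe sets. Otog and Oc90 lie above the widest band in every pair, and Tecta and Tectb only in pair 2, where that band ends at 0.451.

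The genes most alike were sought by the distance between their 3 paired differences, over the best expressed probe set of 18192 other genes. Otog and Oc90 were each other's nearest gene, at a distance of 0.21 on the log2 scale. Next for both came Camk2d, a calcium and calmodulin-dependent kinase gene (0.44 from Otog, 0.37 from Oc90), and Pnpla3, a lipase family gene (0.46 and 0.45). Some dimmer probe sets of Camk2d differed otherwise in pairs 1 to 3, by 0.562, 1.26 and 0.4 and by 0.156, 1.1 and 0.324. The nearest gene to Tectb was Calb1, which encodes the calcium-binding protein calbindin, at 0.15. Calb1 differed by -0.047, 2.37 and 0.39 in the 3 pairs and read 7.76 in mutant pool 2 against 5.13 to 5.65 on the other 5 arrays. Second for Tectb came Tecta, at 1.1, and then Sox2, the transcription factor gene of prosensory and supporting cells, at 1.2. Sox2 read 5.89 in mutant pool 2 and 3.65 to 4.61 elsewhere, from a dim probe set with a mean level above only 12.8% of probe sets. For Tecta the nearest were Tcf24 (0.32), Cep41 (0.38) and Ly6e (0.52), and for Otoa they were Ppp2r5e (0.038), Tgfb2 (0.049) and Cd53 (0.07). Candidates near Otog and Oc90 were few, since 34 probe sets in all had a mean difference of at least 1 in favour of the mutant. These distances rest on 3 pairs and are a description.

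Other matrix genes had smaller differences than Otog and Oc90. Besides the members, 6 lists of tectorial membrane, otoconia and related protein families gave 37 measured genes, of which 0 passed in the limma fit with or without the pairing, against 0.148% of all genes in the paired fit. An unadjusted paired p under 0.05 was held by 5 of the 37, against 7.35% of all genes. Their differences ran from -0.34 for Pla2g12a, a secreted phospholipase gene, to 0.22 for Slc26a4, the pendrin gene, and none exceeded 0.38 in pair 2. The tectorial membrane collagens were near equal, with Col2a1 at 0.04 ± 0.31 and Col9a1 at 0.04 ± 0.06 (adjusted p = 0.931 and 0.875). Both are also cartilage collagens, so their signal is not particular to that membrane. The otoconial matrix genes Sparc (-0.04 ± 0.14) and Sparcl1 (-0.09 ± 0.10) did not pass either (adjusted p = 0.9 and 0.777). Otop1, an otopetrin gene needed for otoconia, differed by 0.13 ± 0.08 at a level above only 6.35% of probe sets. The brightest relatives in each protein family also had smaller differences than Otog and Oc90. These were Tgfbr3 (0.21 ± 0.13) and Eng (-0.10 ± 0.24), both with zona pellucida domains, Muc5b (-0.02 ± 0.18), a gel-forming mucin gene, Strc (0.03 ± 0.07), which encodes the otoancorin relative stereocilin, and Pla2g5 (-0.20 ± 0.10). Many genes of these families were dim. Below the array median lay 6 of 10 zona pellucida genes, 3 of 3 otoancorin relatives with Otoa, and 8 of 11 secreted phospholipase genes. A difference near 0 in a dim probe set does not show that its gene was unchanged. Over the lists the medians were 0.09 for 10 tectorial membrane genes, the 4 members among them, and 0.04 for 8 otoconia genes with Oc90, against 0.0036 over all genes. Ceacam16, Otogl, Otol1, Spp1 and Nox3 had no probe set of their own symbol and were not analysed here.

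**Figure D4:**
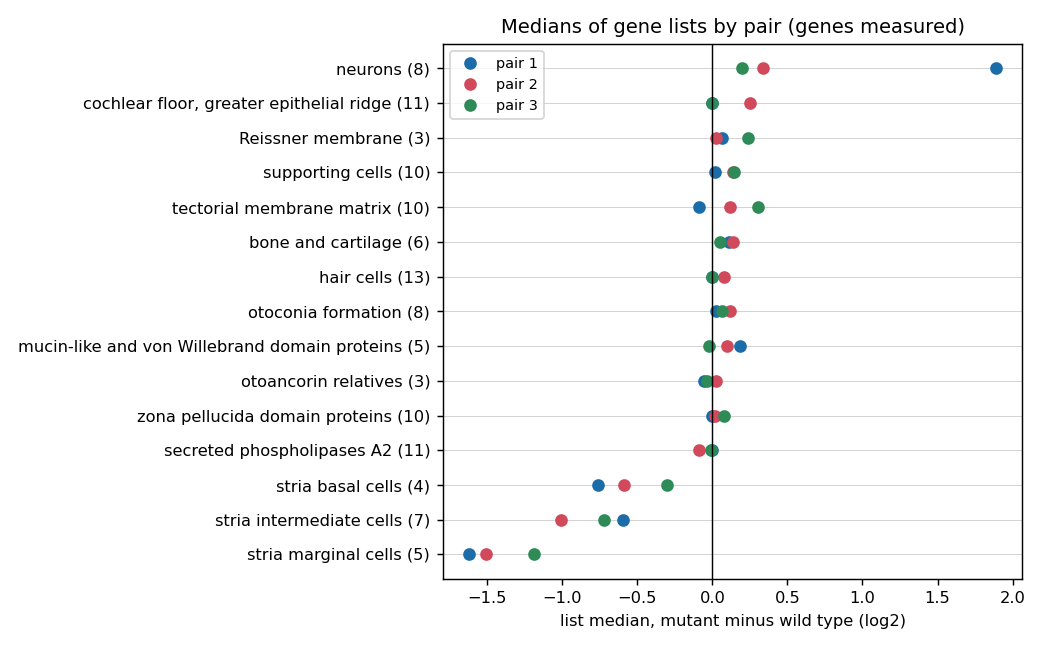
Median difference between mutant and wild type (log2, horizontal axis) of each gene list in each pair, with the number of genes measured in brackets. The 3 strial lists lie below 0 in all pairs, the neuron list reaches 1.89 in pair 1, and the lists of matrix, cochlear floor, supporting and hair cell genes lie between -0.09 and 0.31.

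Cells that could bring these transcripts into the dissected tissue were followed by their own markers. Of 11 genes of the cochlear floor and greater epithelial ridge, 0 passed in the paired limma fit, against 0.148% of all genes. That ridge is the epithelium that lays down the tectorial membrane in development. An unadjusted p under 0.05 was held by 2 of the 11, 1 in each direction, against 7.35% of all genes. In pair 2, 9 of the 11 were higher in the mutant, with a median of 0.25 against 0.0 and -0.0021 in pairs 1 and 3, and Calb1 was the one with a large difference. Epyc (-0.06 ± 0.04) and Clu (-0.25 ± 0.20), the brightest of them, encode epiphycan and clusterin. The summed signal of the list, in multiples of the array median, was 258 to 361 in wild type and 245 to 366 in the mutant. Such sums add linear values, so the brightest genes carry them, here Epyc, Clu, Dcn and Crym at mean levels of 12.0 to 12.8. From which cells of the tissue the signal of these bright genes came is not known here. The sum is therefore not a measure of how much cochlear floor the pools held. Dimmer genes such as Calb1, at 5.84, hardly enter, and the sum says little of them. Supporting cell genes summed to 35.8 to 51.3 in wild type and 35.7 to 50.2 in the mutant, with medians of 0.016, 0.14 and 0.15 in pairs 1 to 3. Of 10 supporting cell genes, 0 passed in the limma fit and 3 had an unadjusted p under 0.05, 2 of them higher, against 7.35% of all genes in either direction. Hey2, a Notch effector gene of supporting cells named after its values were seen, differed by 0.80, 0.76 and 0.71 in pairs 1 to 3, a mean of 0.76 ± 0.05 (adjusted p = 0.063 paired, 1.0 unpaired). Sox2 was also higher in the mutant of all 3 pairs, by 0.72, 1.59 and 0.056 (adjusted p = 0.659, paired). Its probe set was dim, above only 12.8% of probe sets, and whether it was above background is not known. The brightest of the list were S100a1 (-0.32 ± 0.13) and Slc1a3 (0.11 ± 0.07).

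Hair cell genes differed little, but 9 of the 13 measured lay below the array median. A small difference in such dim probe sets does not show that hair cell content was alike. Their summed signal was 13.9 to 15.1 in wild type and 12.9 to 16.3 in the mutant. In the paired limma fit 0 of 13 passed and 1 had an unadjusted p under 0.05, against 0.148% and 7.35% of all genes. Atoh1 and Pou4f3, which define hair cells, were dim, above 25.5% and 15.7% of probe sets, and differed by -0.19 ± 0.13 and 0.07 ± 0.15. Myo6 (-0.06 ± 0.16) and Myo7a (0.27 ± 0.23), myosin genes of hair cells, were the brightest of the list. Among genes of Reissner membrane, whose epithelium is known to express Oc90, Slc26a7 differed by 0.23 ± 0.04, Otx2 by 0.11 ± 0.12 and Lmx1a by -0.39 ± 0.60. In this list 0 of 3 passed and 1 had an unadjusted p under 0.05, beside 0.148% and 7.35% of all genes. The list summed to 6.5 to 8.78 in wild type and 6.94 to 10.2 in the mutant. The part of cell composition in the differences of Otog, Oc90, Tecta and Tectb was not tested.

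The medians of the strial marker lists were below 0 in all 3 pairs. Marginal cell genes summed to 114 to 124 array medians in wild type and 39.9 to 52.8 in the mutant, and 3 of 5 fell in the paired limma fit, where 0.132% of all genes did. These were Kcne1 (-4.32 ± 0.30) and Kcnq1 (-1.67 ± 0.17), the subunit genes of the apical potassium channel, and Slc12a2 (-1.22 ± 0.18), with adjusted p = 0.00373, 0.0193 and 0.0395. Without the pairing the call of Kcne1 remained (adjusted p = 0.0071) and those of Kcnq1 and Slc12a2 were lost (adjusted p = 1.0 for both). Intermediate cell genes summed to 91.5 to 107 and 54.0 to 66.5, with Dct at -0.68 ± 0.08 and Pmel at -0.60 ± 0.15 (adjusted p = 0.087 and 0.195). Of these 7 genes 0 passed, against 0.148% of all genes, and Tyrp1, a dim one, differed by 0.04 ± 0.20. Basal cell genes summed to 197 to 217 and 114 to 147, with Gjb6 at -1.27 ± 0.14 (adjusted p = 0.0304 paired, 1.0 unpaired). Gjb6 was the 1 of 4 that fell in the paired limma fit, where 0.132% of all genes did. The others were Gjb2 at -0.72 ± 0.33, Cldn11 at -0.37 ± 0.16 and Tjp1 at 0.04 ± 0.11 (adjusted p = 0.302, 0.428 and 0.886, paired). The sum is carried by the bright genes of the list, so it does not show that all 4 fell. Neuron genes had medians of 1.89, 0.34 and 0.20 in pairs 1 to 3, with 8, 7 and 6 of 8 higher in the mutant. In all pairs 6 of 8 were higher, against 12.1% of all probe sets, a share lowered by the equal values in pair 1. None of the 8 passed in the paired limma fit, against 0.148% of all genes. An unadjusted p under 0.05 was held by 4, all higher, against 7.35% of all genes in either direction. The summed signal of the 8 neuron genes was 26.9 in mutant pool 1 against 4.41 to 6.08 on the other 5 arrays. Stmn2 (0.98 ± 1.45) and Uchl1 (0.51 ± 0.53) were the brightest. The part of neuronal RNA in the matrix gene differences was not tested. Among bone and cartilage genes 0 of 6 passed or had an unadjusted p under 0.05, against 0.148% and 7.35% of all genes. Chad differed by 0.0041 ± 0.15 and Matn1 by 0.05 ± 0.25. Ibsp, which encodes bone sialoprotein and was singled out once its values were known, differed by 3.85, 0.16 and -0.068 in pairs 1 to 3, with wild-type pool 1 at 3.65 and the other 5 arrays at 7.41 to 8.04.

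The genes beside the members on their chromosomes had smaller differences than Otog and Oc90. Otog and Otoa lie on chromosome 7, Tecta on 9, Tectb on 19 and Oc90 on 15. Of the 20 nearest protein-coding genes, 2 on each side of each member, 18 were measured, with differences from -0.20 for Sorl1, beside Tecta, to 0.50 for Kcnq3, beside Oc90. None passed in the paired limma fit, the smallest adjusted p being 0.501, where 0.148% of all genes passed. Otog lies between Ush1c, the Usher syndrome gene for harmonin (0.29 ± 0.13), and Myod1, the myogenic factor gene (0.10 ± 0.02). Tectb lies between Gpam (0.10 ± 0.12) and Gucy2g (-0.04 ± 0.17), which in pair 2 differed by 0.23 and -0.086, where Tectb differed by 2.36.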

How the data were processed

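Each array's deposited table holds 1 log2 value a probe set. The submitters' processing notes name RMA as the tool, with neither version nor settings, and that the scale is log2 follows from the range of the values. No filter on level was applied. Of 45101 probe sets, 64 control probe sets were left out; 34945 had 1 gene symbol, 932 several and 9160 none. Gene identifiers matched 34741 of them to RefSeq (GRCm38.p6), with 0 symbols changed.

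Genotypes were compared with lmFit and eBayes of limma 3.58.1 under R 4.3.3, two-sided, with the replicate number as a block and Benjamini-Hochberg adjustment over 45037 probe sets at 0.05. The numbers, shared in the labels, were taken as pairs by a rule set beforehand. Every pair's deviations correlated above 0.1, which does not show that the pools were paired in the experiment. Exactly equal values within pairs numbered 15406, 1185 and 1398, so pairs may have been normalized separately. The fit was tested on simulated data. The number of arrays limits the precision.

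A gene was represented by its brightest probe set. Named were all members, from each list those that passed or else the 2 brightest, and the 3 genes nearest to each member; chromosomal neighbours, and Otop1, Atoh1, Pou4f3, Otx2, Pla2g12a and Slc26a4, were picked after values were seen. Members and lists were chosen with earlier results of these data known. Alternatives were the fit without the block, quantile normalization, median centring, a filter on level, trend and robust options, array weights, a threshold of 0.01 and leaving out each pair; the unpaired fit combined with either normalization was added after seeing the data.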

Additional observations from a re-analysis of the deposited data

How the results depend on the processing

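No member passed under any alternative run: over 54 values the smallest adjusted p was 0.0618 (Oc90, quantile normalization, paired limma fit), and 53 kept the direction. For Otog the adjusted p ran from 0.0779 to 1.0 and for Oc90 from 0.0618 to 1.0 over 11 alternatives. The exception in direction was Otoa without replicate 2 (-0.019, within -0.019 to 0.227 over the left-out pairs). Without 1 pair the mean difference of Otog lay between 0.985 and 1.27, of Oc90 between 0.879 and 1.2, of Tecta between 0.219 and 0.846, and of Tectb between 0.072 and 1.31. Without replicate 2 the median of the members was 0.219, against 0.835 with all pairs. The number of all probe sets called, 42 in the paired fit, was 3 without the replicate block (2 with quantile normalization or median centring as well), 77 with array weights, 6 at a threshold of 0.01, and 0 to 7 with a pair left out (7 without replicate 1, 0 without replicate 2 or 3), where 1 residual degree of freedom remained. Without the block, 0 members passed, and the differences themselves are the same by construction. The filter on level removed Otoa. The alternatives over several probe sets of a gene, or without cross-hybridising ones, gave nothing to compare, as each member has 1 probe set of neither class. Signal over background is not given, which limits what can be said of dim probe sets such as that of Otoa.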
